A study of Macaca radiata with 6 samples.

Results

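The genes with the highest array signal in the midluteal corpus luteum (CL) of vehicle-treated bonnet monkeys are described here. They were chosen by the mean log2 signal over the 3 VEH arrays: where a gene had several probe sets its brightest stood for it, and the first 300 of 14132 genes were taken. The values that chose the genes are therefore given as a description, without a test. Female monkeys received a single s.c. injection of 5.25% glucose (VEH) on day 7 of the luteal phase, and the CL was taken 24 h later. One array was hybridised with RNA from each of 3 CL, here VEH4, VEH5 and VEH6 after the sample numbers in the labels. The other 3 arrays of the series came from CL taken after a GnRH receptor antagonist and were not compared here. The series is described as having taken the CL of both treatments from the same monkeys, without saying which samples share an animal. The probes were designed for the rhesus macaque, so bonnet monkey RNA was read across a species difference.

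The CL forms from the ovulated follicle and secretes progesterone (P4), on which early pregnancy depends. Its large and small steroidogenic cells take up cholesterol from lipoproteins, move it into mitochondria and convert it to pregnenolone and P4, under the support of luteinizing hormone. The gland is also dense in capillaries and holds fibroblasts, pericytes and immune cells, all of which contribute RNA to a piece of whole CL. In such tissue, fewer cells of a type and less RNA per cell cannot be told apart.

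Signals were MAS5 values with the same trimmed mean, 500, on all arrays. Levels below are log2 signals, given for VEH4, VEH5 and VEH6 in that order, and the ± is the SD over these 3 arrays. Probes differ in how well they bind, so a place in the ranking orders signals and not amounts of transcript. The arrays differed in the balance between the ends of control transcripts. The 3' signal of ACTB was 22.4 times the 5' signal on VEH4, 2.12 times on VEH5 and 3.36 times on VEH6, for GAPDH it was 7.31, 1.79 and 3.07 times, and for EF1A 9.56, 0.929 and 1.09 times. VEH4 therefore stood apart on all 3 controls. Across 14132 genes the Spearman correlation was 0.897 between VEH5 and VEH6, 0.860 between VEH4 and VEH6 and 0.851 between VEH4 and VEH5.

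The mean log2 signals of the 300 genes ran from 12.88 to 15.76, with a median of 13.46 against 8.84 over all genes. These genes carried 29.1% of the summed signal of all genes on VEH4, 23.9% on VEH5 and 26.1% on VEH6, and the first 30 carried 7.96%, 4.70% and 6.05%. The border was not a step. LOC701799, RBBP7, IFI27L2, UBE2F and BST2 stood just inside at mean log2 signals of 12.88 each, and LOC707117, PIDD1, ANAPC1, APOC3 and CIAO2B just outside at 12.86 to 12.87. Within the median SD below the border lay 122 further genes. Ranked on each array alone, 190 of the 300 were in the first 300 on all 3 arrays, 80 on 2 arrays and 30 on 1 array. Of the 300, 299 were in the first 1000 on every array, the exception being CCL18. When the ranking was made from 2 arrays only and read on the array left out, 226 of the first 300 were again in the first 300 on VEH4, 228 on VEH5 and 236 on VEH6, and 293 to 297 were in the first 1000.

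TIMP1, the tissue inhibitor of metalloproteinases 1, came first with log2 signals of 16.35, 15.22 and 15.71. Thymosin beta 10 (TMSB10), which binds monomeric actin, followed at 16.15, 15.08 and 15.33, and beta-2-microglobulin (B2M), the light chain of class I histocompatibility molecules, at 15.77, 14.93 and 15.29. All 3 were highest on VEH4 and lowest on VEH5. The next probe sets of TIMP1 and TMSB10 read far lower, at 8.32, 10.20 and 9.37 and at 9.84, 9.74 and 9.38, and that of TIMP1 was lowest on VEH4, while the next one of B2M was also bright, as given below. STAR was the fourth, and the fifth was the imprinted non-coding RNA H19 at 15.92, 14.56 and 15.35. Selenoprotein P (SELENOP), a secreted selenium carrier, was at 15.36, 14.64 and 15.56 and was highest on VEH6. The lysosomal fucosidase FUCA1 was at 15.67, 14.94 and 14.88, and the granule proteoglycan serglycin (SRGN) at 15.60, 14.28 and 14.98. The first 30 also held the secreted peptidase CPQ at 14.90, 14.16 and 14.85 and the lectin galectin 1 (LGALS1) at 14.87, 14.76 and 14.43. Of the first 30, 20 had a second probe set, which was over 4 log2 units lower in 9 and above the level of the 300th gene in 5, so their place often rests on 1 probe set. The median SD of the first 30 was 0.43 on the log2 scale, above that of the later genes of the 300 given below.

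**Figure D1:**
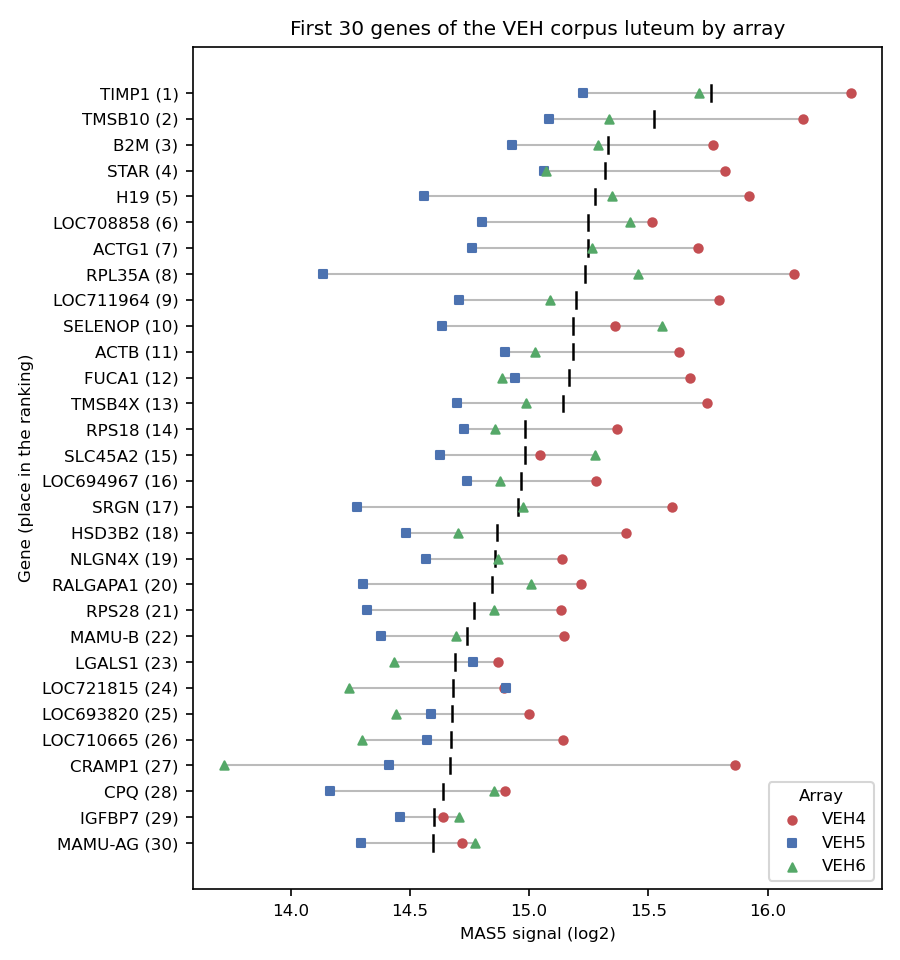
Log2 MAS5 signal (x axis) of the first 30 genes of the ranking (y axis, with the place in the ranking) on VEH4, VEH5 and VEH6; symbols are single arrays, black ticks the means and grey lines the ranges. TIMP1 leads at a mean of 15.76, and VEH4 holds the highest value in most rows, while RPL35A and CRAMP1 have the widest ranges.

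Of the 300 genes, 94 belonged to at least 1 of 28 lists of pathway genes and cell type markers, and 206 to none. By construction 2.12% of all genes are among the 300, and the lists are read against that share. The cytosolic ribosomal proteins had 23 of 36 members with a probe set among the 300 (63.9%), the cytoskeleton list 14 of 23 (60.9%), the antioxidant and glutathione enzymes 8 of 26 (30.8%) and the enzymes of steroid hormone synthesis 5 of 17 (29.4%). Cell division had 0 of 14 and cholesterol synthesis 0 of 15. In lists this short a count of 0 is near the share of all genes. A high signal on an array also depends on the probes, so these shares describe which lists hold bright probe sets.

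**Figure D2:**
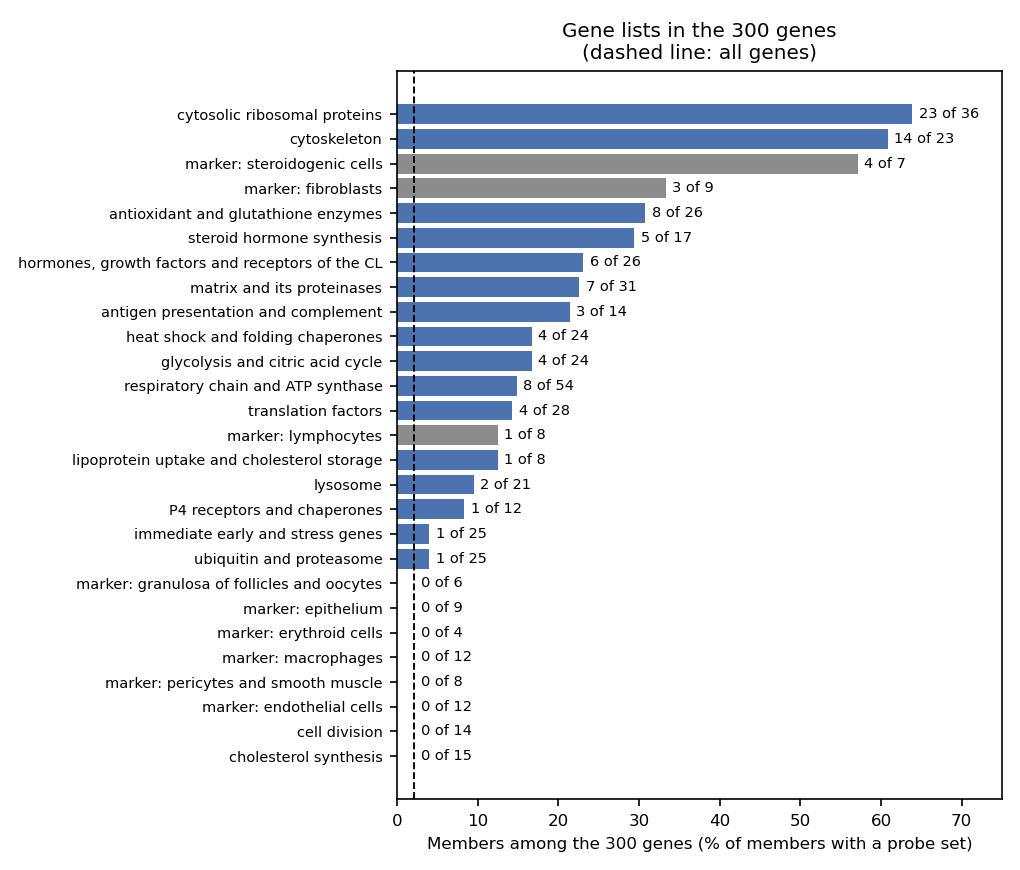
Share of each list's members with a probe set (x axis, percent) that lies among the 300 genes, with the counts beside the bars; blue bars are pathway lists and grey bars cell type markers. The dashed line is the share of all genes, 2.12%, and the ribosomal, cytoskeleton and steroidogenic marker lists reach 57.1% to 63.9%.

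Steroid hormone synthesis was represented by 5 genes. STAR, which moves cholesterol to the inner mitochondrial membrane, had log2 signals of 15.82, 15.06 and 15.07, and HSD3B2, the dehydrogenase that converts pregnenolone to P4, 15.41, 14.49 and 14.70. Ferredoxin 1 (FDX1), the electron donor of the mitochondrial side chain cleavage enzyme, had 14.94, 13.99 and 14.63, and these 3 genes stood at places 4, 18 and 35. Each was highest on VEH4, by 0.31 to 0.95 above the other arrays. STAR and HSD3B2 had no second probe set to set beside this, and the next probe set of FDX1 was instead lowest on VEH4, at 14.02, 14.38 and 14.13. Cytochrome b5 (CYB5A), a helper of microsomal P450 enzymes, had log2 signals of 14.39, 13.95 and 14.04. HSD11B1, which regenerates active glucocorticoid from cortisone, was at 13.74, 14.00 and 13.62 and, unlike the others, was highest on VEH5. The lead of VEH4 depended in part on scaling: 4 of the 5 genes were highest on VEH4 as deposited, 4 of 5 with array medians subtracted and 2 of 5 after quantile normalization between the 3 arrays. The median deviation of the 5 genes from the 3-array mean was highest on VEH4 under each of these, at 0.42, 0.29 and 0.11 log2 units.

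The remaining 12 enzymes and regulators of the list lay outside the 300. Ferredoxin reductase (FDXR) stood at place 762 with log2 signals of 12.71, 11.43 and 11.60. Aromatase (CYP19A1), which makes estradiol from androgen, had 8.48, 13.73 and 11.44, a range of 38.0-fold between arrays. VEH4 was the lowest array, and VEH5 and VEH6 also lay apart. Whether the control ratios of VEH4 have a part in this was not tested. CYP17A1, which makes androgens, had log2 signals of 12.45, 9.84 and 9.96, and VEH4 was the high array here. The nuclear receptor NR5A2 was at 9.99, 12.42 and 11.01 and its relative NR5A1 at 7.90, 8.43 and 8.45, place 8760 of the ranking. CYP21A2, the 21-hydroxylase of the adrenal cortex, was at 7.98, 7.15 and 6.93.

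In cholesterol supply, lysosomal acid lipase (LIPA), which frees cholesterol from lipoprotein esters, was the 1 of 8 members of the uptake and storage list among the 300 (12.5%, against 2.12% of all genes), at 12.59, 13.06 and 13.22 and place 270. The lysosomal cholesterol carriers NPC2 and NPC1 were close below the border at places 345 and 417, with log2 signals of 12.92, 12.84 and 12.47 and of 12.89, 12.50 and 12.27. Apolipoprotein E (APOE) stood between them at 13.44, 12.34 and 12.38, 2.14 times as high on the linear scale on VEH4 as on VEH5. The cholesterol synthesis list began at place 489 with the sterol reductase TM7SF2 at 13.06, 12.43 and 11.63, then FDPS at 12.90, 12.11 and 11.92 and FDFT1 at 12.23, 11.61 and 11.97, enzymes that make farnesyl diphosphate and squalene. All 3 were highest on VEH4. The list as a whole had a median log2 signal of 10.73, above the 8.84 of all genes. Of its 15 members 0 was below the dim limit, the 40th percentile of probe sets at 7.31. Over all genes, each read on its brightest probe set, 3210 of 14132 were below that limit.

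Among hormones, growth factors and their receptors, 6 of 26 genes (23.1%) were in the 300. Inhibin alpha (INHA), the subunit shared by the inhibins that the CL secretes, had log2 signals of 15.41, 14.07 and 13.46. Relaxin 2 (RLN2), a peptide hormone of the primate CL, had 13.90, 13.77 and 12.06. INHA was 3.87-fold apart between VEH4 and VEH6, and RLN2 3.58-fold, with VEH6 the low array for both. Neither gene had a second probe set to set beside it. Amphiregulin (AREG), a ligand of the epidermal growth factor receptor, had log2 signals of 13.21, 13.76 and 13.68 and was lowest on VEH4. Of the binding proteins of insulin-like growth factors, IGFBP7 was at 14.64, 14.46 and 14.71, IGFBP1 at 14.03, 13.12 and 13.20 and IGFBP4 at 14.07, 12.75 and 12.47. IGFBP7 was nearly level across the arrays, and IGFBP4 was 3.04-fold higher on VEH4 than on VEH6. IGFBP2 was outside at place 447 and the inhibin beta A subunit (INHBA) at place 701, with log2 signals of 11.51, 12.93 and 11.59 and VEH5 the high array.

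Of 12 P4 receptors and chaperones, PGRMC1 was the only one among the 300 (8.33%, against 2.12% of all genes). This membrane-associated P4 binding component had log2 signals of 13.93, 13.31 and 13.16, place 150. Its relative PGRMC2 was at 11.58, 11.43 and 11.73 and the chaperone FKBP4 at 10.79, 10.07 and 10.79. The nuclear P4 receptor gene (PGR) had 5.98, 7.35 and 5.38, a mean below the dim limit of 7.31. Of 14 genes that the study selected for P4 signaling and that had a probe set, AREG and PGRMC1 were the 2 among the 300 (14.3%).

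**Figure D3:**
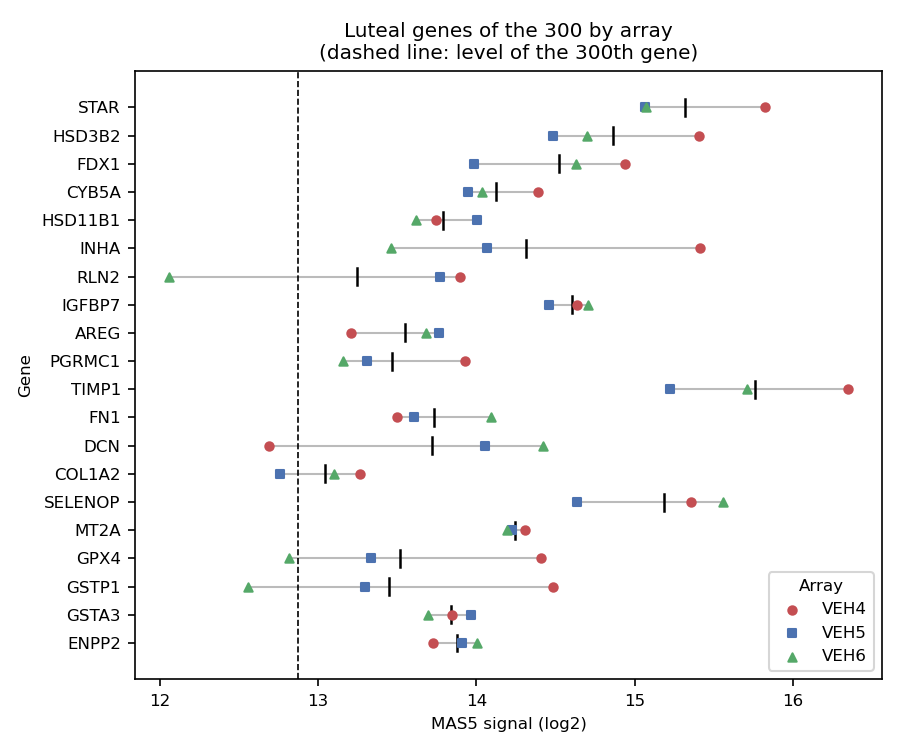
Log2 MAS5 signal (x axis) of 20 luteal genes of the 300 (y axis) on VEH4, VEH5 and VEH6, with black ticks for the means, grey lines for the ranges and a dashed line at the level of the 300th gene, 12.88. STAR, HSD3B2 and FDX1 are highest on VEH4. RLN2, GSTP1 and GPX4 on VEH6, COL1A2 on VEH5 and DCN on VEH4 fall below the line.

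The matrix list had 7 of 31 members among the 300 (22.6%). After TIMP1 came fibronectin (FN1), with log2 signals of 13.50, 13.61 and 14.10, and decorin (DCN), the small proteoglycan of collagen fibrils, with 12.69, 14.06 and 14.42. The serine protease inhibitor SERPINE2 had 12.96, 13.13 and 13.78. All 3 were lowest on VEH4 and highest on VEH6, and for DCN the arrays differed by 3.32-fold. The next probe set of DCN kept that order at 12.55, 13.29 and 14.18, whereas those of SERPINE2 at 13.11, 12.99 and 12.77 and FN1 at 8.63, 7.48 and 5.22 were highest on VEH4 and lowest on VEH6. Collagen chains COL1A2, COL6A1 and COL5A2 had mean log2 signals of 13.04 ± 0.26, 12.97 ± 0.48 and 12.92 ± 0.31 (SD, n = 3). Over the 7 genes the median deviation from the 3-array mean was 0.36 on VEH6, -0.16 on VEH5 and -0.23 on VEH4, and after quantile normalization it was 0.39, -0.098 and -0.29. TIMP2 had 10.41, 11.45 and 10.85 and TIMP3 9.25, 10.50 and 9.08, but the next probe set of TIMP1 had a mean below both, so no order between these inhibitors can be read.

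Antioxidant and glutathione enzymes had 8 members in the 300. Metallothionein 2A (MT2A), which binds zinc and copper, had log2 signals of 14.31, 14.22 and 14.20, and the glutathione transferase GSTA3, which also isomerises steroids, 13.85, 13.97 and 13.70. The catalytic subunit of glutathione synthesis (GCLC) had 14.33, 13.26 and 13.32. MT2A and GSTA3 were nearly level, while GCLC was about 1 log2 unit higher on VEH4. The next probe set of GCLC was instead lowest on VEH4, at 11.62, 12.96 and 12.95, so this difference depended on the probe set. Glutathione peroxidase 4 (GPX4), which reduces lipid peroxides, had 14.41, 13.34 and 12.82, and GSTP1 had 14.48, 13.30 and 12.56. Both were highest on VEH4 and lowest on VEH6. MGST1, the mitochondrial peroxidase PRDX3 and superoxide dismutase 1 (SOD1) had means of 13.44 ± 0.21, 13.25 ± 0.14 and 12.90 ± 0.34 (SD, n = 3). For 7 of the 8 genes VEH6 was the lowest array, for 7 with array medians subtracted and for 4 of 8 after quantile normalization.

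Energy metabolism was represented by 8 of 54 genes of the respiratory chain and ATP synthase (14.8%). The list of glycolysis and the citric acid cycle had 4 of 24 (16.7%). The cytochrome oxidase subunit COX6B1 led with log2 signals of 14.06, 13.89 and 13.21, followed by the ATP synthase subunit ATP5MG at 13.78, 13.59 and 12.97. The complex III subunit UQCRQ was at 13.95, 12.89 and 13.02. VEH4 was the high array in 7 of the 8 respiratory genes and VEH6 the low array in 6. With array medians subtracted, VEH5 was the high array in 7 and VEH6 the low array in 7. After quantile normalization VEH4 was the high array in 5 and VEH6 the low array in 5, so VEH6 stayed low in most genes under each scaling and VEH4 did not stay high with array medians subtracted. The respiratory list was spread closely below the border, with a median log2 signal of 11.74 and NDUFA4 nearest at place 314. From the list of glycolysis and the citric acid cycle, enolase (ENO1) was at 14.34, 13.96 and 14.23. The NADPH-forming isocitrate dehydrogenase IDH1, held by the list although it acts outside the cycle itself, was at 13.28, 13.53 and 12.86. Lactate dehydrogenase (LDHA) was at 12.82, 13.21 and 13.47 and aldolase (ALDOA) at 13.96, 12.53 and 12.41. GAPDH, often used as a reference gene, stood at place 855 with 12.66, 12.66 and 10.05, and its VEH6 value was 2.61 log2 units below the other arrays. The 3' control probe set of GAPDH, left out of the ranking, read linear signals of 61199, 29253 and 32635, without that fall on VEH6.

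The protein synthesis machinery formed the largest group. Log2 signals of the 23 ribosomal protein genes in the 300 ran from a mean of 12.98 (RPL10A) to 15.23 (RPL35A), and their SDs from 0.064 (RPL9) to 1.01 (RPL35A). RPL35A had log2 signals of 16.11, 14.13 and 15.46, but its next probe set read 14.58, 14.58 and 14.22, without the dip on VEH5. RPS18 was at 15.37, 14.72 and 14.86 and RPS28 at 15.13, 14.32 and 14.85. RPL9 and RPS3 were nearly level at 14.24, 14.15 and 14.27 and 14.48, 14.31 and 14.30. RPL19, the internal control of the study's real time RT-PCR, had 14.15, 13.61 and 14.41, an SD of 0.41 that was above the median of the 300. Of 28 translation factors 4 were included (14.3%, against 2.12% of all genes). RACK1 was at 13.96, 14.30 and 13.71, EIF4G2 at 13.66, 13.96 and 13.98, EIF4A2 at 13.50, 13.50 and 13.38 and EIF1 at 13.49, 13.20 and 13.48. EIF4A2, an RNA helicase of initiation, was among the 12 genes with the smallest SD. Ribosomal genes have many pseudogenes, and in a ranking without probe sets that match several transcripts 14 members of the list were among the first 300.

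Cytoskeletal genes made up 14 of the 300. The cytoplasmic actins ACTG1 and ACTB had log2 signals of 15.71, 14.76 and 15.26 and 15.63, 14.90 and 15.02, and thymosin beta 4 (TMSB4X) 15.75, 14.70 and 14.99. Calcium-binding S100A6 had 14.96, 14.36 and 14.05, and S100A11 and S100A10 had means of 13.91 ± 0.41 and 13.65 ± 0.54 (SD, n = 3). For 11 of the 14 genes VEH4 was the highest array, for 10 with array medians subtracted and for 8 after quantile normalization. The median deviation on VEH4 was 0.44, against 0.15 for the 300 as a whole, and 0.13 against 0.034 after quantile normalization. Exceptions were the myosin light chain MYL6, highest on VEH5 at 13.89, 14.30 and 13.68, annexin A2 (ANXA2), likewise, at 12.96, 13.81 and 13.03, and the actin branching subunit ARPC2, highest on VEH6 at 14.03, 13.33 and 14.08. Vimentin (VIM), the intermediate filament of mesenchymal cells, is given with the widest genes below. The lead of VEH4 in this list also depended on the probe set. The next probe set was lowest on VEH4 for ACTG1, at 9.998, 12.79 and 11.99, and for TMSB4X, at 12.48, 13.12 and 12.84. It was also lowest there for VIM and MYL12A, and for TPM3 with a mean below the dim limit. For TMSB10 and S100A6 the next probe set was highest on VEH4, for S100A6 at 14.19, 13.65 and 13.22.

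Smaller groups filled out the lists. In antigen presentation, the class I genes MAMU-B and MAMU-A followed B2M with log2 signals of 15.15, 14.38 and 14.69 and 14.14, 12.68 and 12.80, and the further members of the list lay at place 796 and below. MAMU-AG, a class I gene that the list does not hold, stood at place 30 with 14.72, 14.30 and 14.77. All 3 class I genes were placed by _x_at probe sets, which match several transcripts, so signal may be shared between them. Among chaperones, HSPA8 was at 13.77, 13.65 and 14.09, the disulfide isomerase P4HB at 13.87, 13.55 and 13.22, calnexin (CANX) at 13.20, 13.22 and 13.04 and the chaperonin subunit CCT2 at 12.95, 13.17 and 12.69. All 4 stayed within 1.6-fold across the arrays. The lysosome list had 2 of 21 members among the 300 (9.52%, against 2.12% of all genes). They were the proton pump subunit ATP6V0E1 at 14.36, 13.66 and 14.09 and the tetraspanin CD63 at 13.76, 13.37 and 13.05. The lysosomal enzymes FUCA1 and LIPA, given above, were also among the 300 but are not counted in this list. From the ubiquitin and proteasome list, PSMA7 was the 1 member of 25 (4%), at 13.94, 13.76 and 13.77. DUSP1, a phosphatase that switches off MAP kinases, was the 1 of 25 immediate early and stress genes (4%), at 13.17, 13.49 and 13.16. The shares of these last 2 lists are near that of all genes.

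Markers of cell types were read as a description of the tissue. The 300 were chosen by these same signals, so the counts do not check its label. With 2.12% of all genes among the 300, a count of 0 in the short lists below is near that share. Of 7 steroidogenic markers with a probe set, STAR, HSD3B2, FDX1 and INHA were among the 300 (57.1%). CYP19A1, CYP17A1 and NR5A1 were outside, at places 1402, 2106 and 8760. The log2 of the summed signal of the 7 was 17.48, 16.69 and 16.64. These sums depend on the probes and on the length of each list, and are compared only between arrays. Of the 4 steroidogenic markers in the 300, 4 were highest on VEH4 as deposited and 4 with array medians subtracted. After quantile normalization between the 3 arrays 2 were. Their median deviation on VEH4 was 0.52, 0.39 and 0.19 in that order, so the lead of VEH4 depended in part on scaling. The side chain cleavage enzyme and the luteinizing hormone receptor had no probe set under their symbols in the annotation used and were not read here. Fibroblast markers had 3 of 9 among the 300, DCN, COL1A2 and the microfibril protein MFAP5 at 13.89, 13.89 and 13.56, and a log2 summed signal of 15.46, 15.54 and 15.69. Endothelial markers had 0 of 12, although PECAM1, the adhesion molecule of endothelial junctions, stood at place 676 with 11.80, 12.36 and 11.99. VWF and CDH5 followed at means of 11.75 ± 0.63 and 11.63 ± 0.48 (SD, n = 3), and the log2 summed signal of this list was 14.71, 14.46 and 14.17. Pericytes and smooth muscle had 0 of 8, led by MYL9 at 12.75, 11.32 and 11.46.

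Macrophage markers had 0 of 12 among the 300, and lysozyme (LYZ) led them at 8.25, 13.00 and 12.72. That single gene was 26.9-fold lower on VEH4 than on VEH5, and the log2 summed signal of the list was 13.08, 14.00 and 13.90. The lower sum on VEH4 was carried by LYZ and is not read as a difference in macrophages. MRC1 was highest on VEH4 at 10.80, 9.89 and 10.28, and C1QA was lowest there at 9.70, 10.95 and 10.35. Epithelial markers had 0 of 9, of which 4 (KRT19, CDH1, KRT7 and EPCAM) were below the dim limit, against 3210 of all 14132 genes. Erythroid markers had 0 of 4, with beta globin (HBB) at 10.14, 11.53 and 9.95. Markers of follicular granulosa and oocytes had 0 of 6, with the zona protein ZP4 first at 10.02, 10.13 and 10.12. Among lymphocyte markers granzyme B (GZMB), a protease of cytotoxic lymphocytes, was the 1 of 8 in the 300, at 12.92, 12.89 and 12.89. The next lymphocyte marker, JCHAIN, had a mean of 9.14 ± 0.052 (SD, n = 3), and CD79A and CD4 were below the dim limit. GZMB also had the smallest SD of the 300, 0.018, and a single probe set.

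A closer reading of the symbols bears on several bright genes. SLC45A2, a transporter of pigment cells, was at 15.05, 14.63 and 15.28, but its next probe set read 8.08, 7.27 and 6.81. NLGN4X, a synaptic adhesion molecule, was at 15.14, 14.57 and 14.87 against 6.87, 8.43 and 8.74, and LIN7A, a scaffold of cell junctions, at 14.66, 14.58 and 14.45 against 6.76, 7.41 and 8.28. For these 3 genes the second reading was 6.84 to 7.60 log2 units lower. SPRR1B, a protein of squamous epithelium, was at 14.26, 12.88 and 13.55 against 6.64, 5.99 and 6.48. Interleukin 2 (IL2) was at 13.87, 13.73 and 12.87 against 9.60, 12.71 and 9.60, a smaller gap with a mean of 2.86 and the second reading high on VEH5 alone. Granzyme B (GZMB), given among the lymphocyte markers, had no second probe set to set beside its signal. LIN7A, IL2 and SPRR1B were chosen after their values were seen. Placental lactogen (CSH2), chosen in the same way, had log2 signals of 15.20, 13.57 and 14.79 on a single probe set of the _s_at kind, which matches several transcripts. Whether such probe sets read the named transcript was not tested.

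Over the 300, 201 genes (67%) had more than 1 probe set, against 44.6% of the other genes. The next probe set is the lower one by construction, and it lay a median of 1.97 log2 units below. For 55 genes the gap was within 1 unit, and for 52 (25.9%) over 4 units. Dim genes have little room for such gaps, so no comparison with the other genes was made. In 32 genes both probe sets were above the level of the 300th gene, among them B2M (15.77, 14.93 and 15.29 against 14.87, 14.89 and 15.05), FDX1 (14.94, 13.99 and 14.63 against 14.02, 14.38 and 14.13) and CYB5A (14.39, 13.95 and 14.04 against 14.00, 13.79 and 13.94). For these 3 the second probe set also read high, although that of CYB5A differs from the first only in the suffix of its name. In 28 of the 201 genes, and in 10 of these 32, the pair of names differed in that suffix alone, and the readings may then share probes. Its brightest array was another in FDX1 and B2M, where VEH4 no longer led. Probe sets that match several transcripts, marked _s_at or _x_at, placed 71 and 15 of the 300 (23.7% and 5%), against 7.71% and 0.680% of the other genes. Symbols of unnamed loci (LOC) made up 58 of the 300 (19.3%), against 8.06% of all genes.

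The second probe sets placed VEH4 differently. In 182 genes the next probe set was above the dim limit. On the probe set of the ranking VEH4 exceeded the mean of VEH5 and VEH6 by a median of 0.18 log2 units, and on the next probe set it was lower, with a median of -0.40. VEH4 was the lowest array in 45 of the 182 genes on the first and in 106 on the second. After quantile normalization the medians were 0.0031 and -0.40 and the counts 59 and 108. SELENOP read 10.50, 14.20 and 13.34 on its next probe set, and FUCA1 10.47, 13.93 and 11.88, each over 3 log2 units lower on VEH4 than on VEH5. ACADM, which oxidises medium-chain fatty acids and was chosen after its values were seen, went from 13.21, 13.88 and 14.15 to 5.37, 11.59 and 10.05, and IDH1 to 6.09, 10.84 and 9.53. VEH4 was at least 2 log2 units lower in 18 genes on the next and in 0 on the first probe set. This is the array with the high 3' to 5' ratios of the controls. The position of the probes along each transcript was not analysed here, and the part of that ratio in the difference was not tested.

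**Figure D4:**
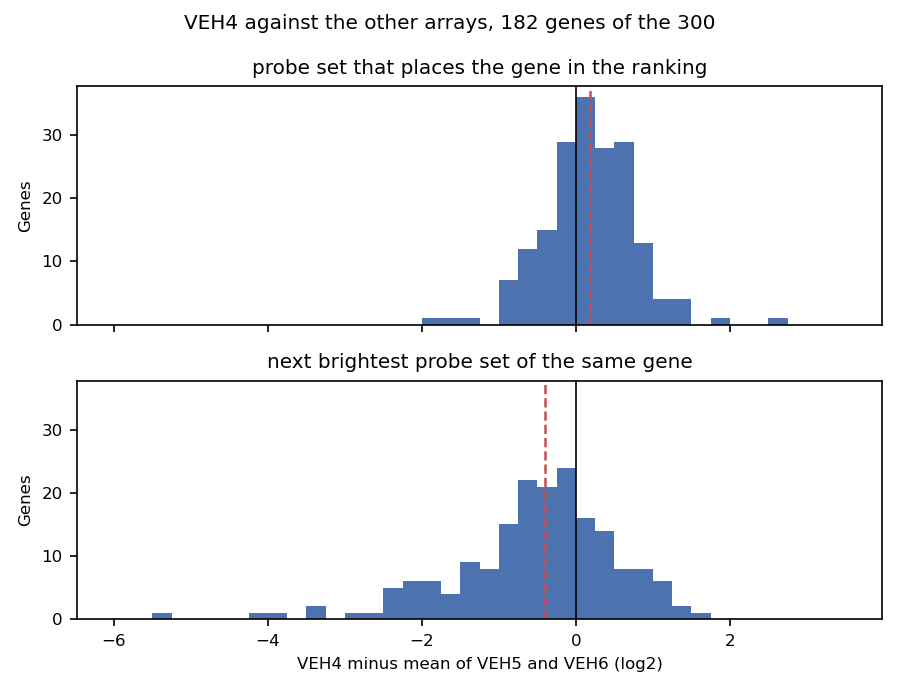
Number of genes (y axis) by the difference between VEH4 and the mean of VEH5 and VEH6 (x axis, log2), for 182 genes of the 300 whose next probe set lies above the dim limit; the red dashed lines are the medians. On the probe set of the ranking the median is 0.18, and on the next probe set it is -0.40 with a tail beyond -2 that holds 18 genes.

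Between the 3 arrays, the median SD of the 300 genes was 0.33 on the log2 scale, against 0.53 for the other genes. It was 0.43 for the first 30 genes, 0.31 for the following 70, 0.33 for each of the following sets of 100, 0.38 for the 700 genes outside the border, 0.39 for places 1001 to 3000, 0.41 for places 3001 to 7000 and 0.74 for places beyond 7000. The first 30 thus had a higher median SD than each set up to place 7000 and a lower one than the genes beyond it. Of the 300, 236 (78.7%) stayed within 2-fold across the arrays and 8 exceeded 4-fold, while of the other genes 49.5% stayed within 2-fold and 17.3% exceeded 4-fold. VEH4 was the highest array for 157 of the 300 genes, VEH5 for 77 and VEH6 for 66. With quantile normalization these counts became 111, 108 and 81, and with array medians subtracted 107, 152 and 41. The order of the arrays over the whole set therefore rests on the scaling. Without VEH4 the ranking of the other pair had a median SD of 0.23, against 0.29 without VEH5 and 0.33 without VEH6. These SDs are over 2 arrays and are not directly comparable with those over 3.

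**Figure D5:**
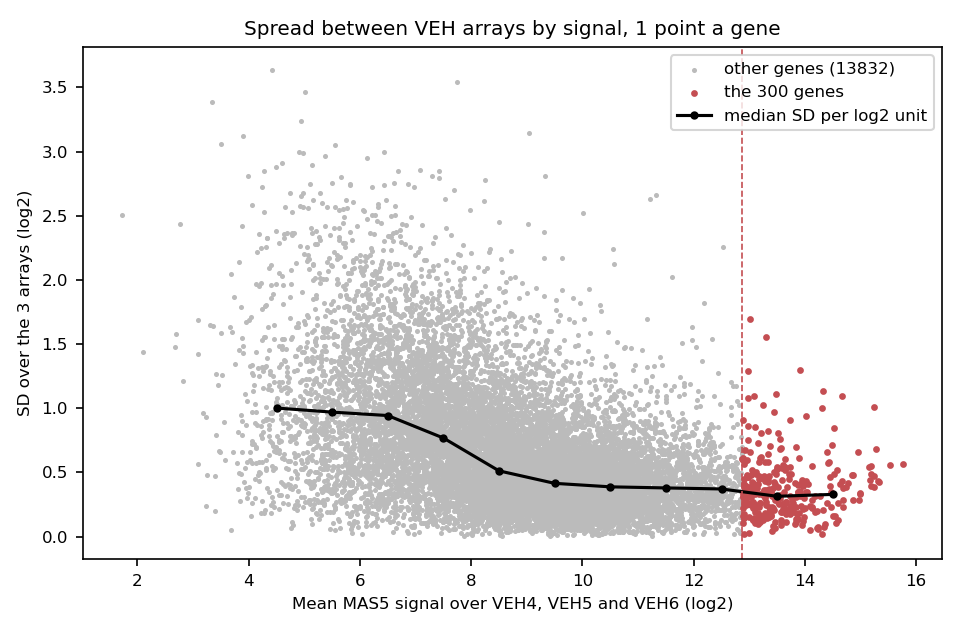
SD over VEH4, VEH5 and VEH6 (y axis, log2) against the mean log2 MAS5 signal (x axis), 1 point a gene, with the 300 genes in red, the other 13832 in grey and the median SD per log2 unit as a black line. The line falls from the dim to the bright genes, and the 300 lie right of the dashed line at 12.88 with a median SD of 0.33.

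The 12 widest genes of the 300 had SDs from 0.999 to 1.70. The chemokine CCL18 had log2 signals of 12.66, 11.51 and 14.85, a 10.2-fold range, and its next probe set 8.74, 10.48 and 11.35, so VEH6 was high on both. Palladin (PALLD), an actin-binding scaffold, had 11.68, 12.98 and 14.26 and on the next probe set 9.65, 11.80 and 12.10, with VEH4 low and VEH6 high on both. The deubiquitinase USP14 had 14.58, 14.75 and 12.41, with VEH6 low, as on its next probe set, alike in name but for the suffix, at 14.61, 14.76 and 12.26. In other genes the second probe set did not show the difference. The DNA repair subunit XRCC6 had 15.09, 12.25 and 12.57, but 11.42, 11.38 and 11.29 on the next. VIM had 15.04, 13.02 and 14.91, but 13.74, 14.52 and 14.36 on the next, without the fall on VEH5. CRAMP1 had 15.86, 14.41 and 13.72 and 9.37, 10.03 and 8.01, and PLEKHB1 14.13, 12.20 and 14.12 and 6.35, 7.81 and 6.15, the second at a low level in both. CYP3A4, a P450 enzyme of drug and steroid metabolism, had 12.96, 14.07 and 11.91, with VEH5 high there and on the next probe set at 10.18, 11.90 and 10.86. ODAD3 had 14.05, 11.89 and 13.31 and no second probe set. RLN2, RPL35A and INHA, given above, completed the 12.

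The 12 narrowest genes had SDs from 0.018 to 0.087. After GZMB came LOC694799 at 14.31, 14.27 and 14.32 and AIM2, a sensor of cytosolic DNA, at 12.97, 13.02 and 13.01. The glycosyltransferase MGAT4B was at 13.43, 13.43 and 13.35, the GTPase RHOA at 13.34, 13.42 and 13.51 and PAPSS2, which makes the sulfate donor of sulfotransferases, at 13.59, 13.48 and 13.65. MT2A, RPL9, EIF4A2, LOC696935, LOC698713 and LOC697620 were the others. A small SD over 3 arrays is itself uncertain. Of the 12, 7 had a second probe set, which was less level in all 7, with SDs from 0.20 to 0.99. The bright next probe set of MGAT4B read 13.55, 11.61 and 12.88, that of EIF4A2 10.18, 11.82 and 11.22 and the dimmer one of AIM2 8.61, 8.22 and 8.35. Such genes were level on the probe set of the ranking over these 3 arrays, which number too few to call any of them constant.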

How the data were processed

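RNA from 3 VEH CL was hybridised to Affymetrix rhesus macaque arrays. The authors deposited intensity values summarised per probe set with MAS5, as linear signals scaled to a trimmed mean of 500 on each array. The sources used here give no detection calls and no MAS5 settings or version. Of 52865 probe sets, 99 AFFX controls were left out. The platform annotation of 2016 gave 24956 probe sets a single symbol, 361 several and the others none. Only the first kind was ranked. Signals under 1 (5 values) were set to 1, log2 was taken, and each gene was represented by its brightest probe set over VEH4, VEH5 and VEH6. The study's methods give no ranking of a single group, and with 1 group and no contrast no test was made. The array number limits the precision, and the SD covers the spread between these samples, which may be technical in part.

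The members and lists were chosen with earlier results of these data known. Named genes are the first 30, up to 8 members of each list among the 300 (up to 3 if none is), the 12 widest and 12 narrowest by SD, the 5 genes on each side of place 300 and a set of luteal genes. Further genes were named outside these rules, among them FDXR, NPC1, NPC2, PGRMC2, FKBP4, IGFBP2, NDUFA4 and JCHAIN. ANXA2 and ARPC2 were given as exceptions for their array pattern. The 28 lists overlap. The dim limit is the 40th percentile of mean log2 signal. Alternatives were quantile normalization between 3 or 6 arrays, array medians, a pseudocount of 16, values floored at each array's 20th percentile, linear means, medians, means over all probe sets, no _x_at or _s_at probe sets, and leaving out each array. Those on second probe sets and array deviations were chosen after seeing the data. The ranking was tested on simulated data. Sequences of genes were not analysed here. Python 3.11.15, numpy 2.4.6, pandas 2.3.3 and matplotlib 3.10.9 were used.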

Additional observations from a re-analysis of the deposited data

Results flagged for a closer look

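Signal was found in probe sets outside the ranking. Of 27390 probe sets without a gene symbol, 135 (0.493%) had a mean log2 signal at or above that of the 300th gene, and 1 was above TIMP1. The 59 reporter control probe sets had a median of 5.57 and a highest value of 9.36. Of 361 probe sets with several symbols, 54 (15.0%) also reached that level. The 6 mitochondrial probe sets without a symbol had a median of 12.80, and 3 were above the level of the 300th gene. One of them had log2 signals of 12.75, 15.56 and 16.12 on VEH4, VEH5 and VEH6, an SD of 1.81 that is larger than that of any of the 300 genes.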

How the results depend on the processing

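Of the 300 genes, 296 stayed among the first 300 with quantile normalization between the 3 arrays, 297 between all 6, 300 with array medians, a pseudocount of 16 or the floor, 288 with linear means, 277 with medians and 230 without _x_at and _s_at probe sets, but 167 when a gene was read as the mean of all its probe sets. Leaving out each array kept 273 to 280. The median SD was 0.31 to 0.36 under these settings. Without each array, as an SD over the remaining pair, it was 0.23 to 0.33, lowest without VEH4. Genes in a list numbered 81 to 94. The respiratory list rose from 8 to 14 members with the mean over probe sets, which moves genes with few or even probe sets up, and the ribosomal list fell from 23 to 14 without _x_at and _s_at probe sets. The median gap to the next probe set was 1.97, then 2.64 without those probe sets, and 1.78 to 2.42 without each array. Of 336 list counts, 318 stayed within 1.5 times. Of 1815 levels of 153 named genes under all alternatives, 1679 stayed within 1 SD and 136 moved, 86 of them with the mean over probe sets, 25 with normalization between all 6 arrays and 23 without _x_at and _s_at probe sets. No paired analysis was possible because a single group was described. What the gene symbols, the species of the probes and 3 arrays can show limits every level given.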
